A study of Mus musculus with 8 samples.

Results

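Kinesins are the motor proteins that walk along microtubules. The genes described here are the rows of the deposited gene table whose symbol is Kif followed by a digit, or Klc1 to Klc4, without the heterotrimeric kinesin-2 genes Kif3a, Kif3b and Kif3c. That rule gave 37 of the 14765 genes in the table, and 35 of them had enough counts to be tested. The symbols were checked by role: 32 are motor genes, 4 are kinesin light chains, and Kif1bp is a kinesin binding protein that is caught by the symbol and is no motor. The samples were 8 bulk poly(A) RNA-seq libraries from brain tissue of mice with the genotype C57, taken from PrL, the usual abbreviation of the prelimbic cortex. The libraries were 4 Sham and 4 SNI, where SNI in pain research commonly stands for spared nerve injury, and the series title places them in a study of allodynia and anxiety-like behaviour in chronic pain. The labels give no other allele, agent, time or age. They name replicates but not their animals, so every p-value here rests on library-to-library spread, part of which could be technical.

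A kinesin heavy chain has a motor head that splits ATP, a stalk and a tail, and in most families it moves cargo towards the plus end of the microtubule. In neurons that direction is down the axon. Kinesin-1 (Kif5 heavy chains with Klc light chains) and kinesin-3 (Kif1 and Kif13) carry vesicles and organelles to synapses and dendrites, kinesin-4 and kinesin-13 control microtubule growth and shortening, and several families run the mitotic spindle and are low in tissue with few dividing cells.

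What the motor genes share, beyond their names, is the ATP-binding loop of the head, known as Walker A. A search of the coding sequences (GENCODE M21, GRCm38) for 8 codons of the pattern glycine, any 4, glycine, lysine, then serine or threonine found it in 32 of 32 motor genes. The light chains and Kif1bp had no such stretch in their coding sequences. The sequences below are the 24 bases of that loop for 5 members whose levels are described later, 5′ to 3′ in coding sense. Capitals mark bases that differ from Kif1a at the same position of the loop.
Kif1a: gggcagacgggggccggcaagtcc
Kif1b: gggcagacTggTgcTggGaaAtcc
Kif13a: ggCcagacAggTTcTggAaagtcc
Kif4: gggcagacTggATcTggAaaAAcG
Kif26a: ggCcaCaTgAgCCTcggcaaAtcA
The loop of Kif1a lies at chr1:93077739-93077762 on the minus strand, that of Kif1b at chr4:149274967-149274990 on the minus strand and that of Kif4 at chrX:100633865-100633888 on the plus strand. In Kif13a and Kif26a it is split by an intron. Kif1b differs from Kif1a at 5 of the 24 bases and codes for the same residues. Kif13a differs at 6, Kif4 at 8 and Kif26a at 9, and all 3 code for other residues in the loop. Kif26a and Kif26b belong to the family whose heads are known for binding microtubules without ATP-driven movement.

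The mitotic kinesins more often carried 1 promoter motif, which is described here without a test. The cell cycle homology region (CHR) is a short element found in many genes expressed late in the cell cycle, and the letters searched were TTTGAA on either strand, in the window from 250 bases before to 50 after the RefSeq gene start (GRCm38.p6). Of the 37 members, 29 had an entry. The letters occurred in 9 of 10 mitotic members (90%), in 3 of 19 other members (15.8%) and in 20.2% of the 27025 genes with a promoter entry. The mitotic members with the letters were Kif4, Kif11, Kif14, Kif15, Kif18b, Kif20b, Kif22, Kif23 and Kif2c, and Kif18a was the one without. Kif4, Kif14 and Kif2c were added here and are not in the mitotic role group described further below. Kif20a of that group had no promoter entry. The 3 windows of 30 bases below were chosen because the match sits at nearly the same distance from the gene start, with the matched letters in capitals, here the reverse complement of the motif.
Kif11: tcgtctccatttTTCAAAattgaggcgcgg
Kif15: tggggcgccaaaTTCAAAtctgcggccatc
Kif22: gggccccggtaaTTCAAAagagagaagcgg
The windows lie at chr19:37376351-37376380 (plus strand), chr9:122951050-122951079 (plus strand) and chr7:127042420-127042449 (minus strand). The match shown begins at -19, -19 and -17 from the start. Kif15 and Kif22 each hold another match in the window, at -234 and -215. CCAAT, searched the same way, was in 6 of 10 mitotic members (60.0%) and 41.1% of all genes. The cyclic AMP response element TGACGTCA was in 4 of the 29 members (13.8%), namely Klc1, Kif5c, Kif17 and Kif18a, against 2.03% of all genes. These matches describe letters in a window and no binding was measured.

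Before the comparisons, the libraries were checked. Total counts ran from 14735602 to 19602487 per library, and libraries of the same group correlated at a Spearman rho of 0.990 to 0.995 across genes. Markers of excitatory cortical neurons were high in all 8 libraries. The summed level of the 10 markers was 6870 to 7602 CPM, the depth-scaled count, in sham and 4797 to 6650 in SNI. It was lowest in SNI replicates 2 and 3. At a false discovery rate (FDR) of 0.05, 3 of the 10 genes were lower, against 2.87% of all tested genes. Markers of striatal medium spiny neurons, 12 genes, summed to 307 to 575 CPM in sham and 442 to 1018 in SNI, highest in SNI replicates 2 and 4. All 12 had log2 fold changes (SNI minus sham) above 0, with a median of 1.00, where 52.2% of all genes were above 0. Of the 12, 0 passed edgeR's test at FDR 0.05, against 5.02% of all genes. At an unadjusted p under 0.05, 6 were higher, against 10.3% of all genes, and 0 lower. The oligodendrocyte sum spread widely inside both groups, from 3173 to 7030 CPM in sham and from 4435 to 7858 in SNI. Of 10 microglia markers, 9 were above 0 with a median of 0.36. By edgeR 2, P2ry12 and Tmem119, were higher at FDR 0.05, against 2.15% of all genes. The sum of the 10 microglia markers was 420 to 506 CPM in sham and 488, 557, 743 and 466 in SNI replicates 1 to 4, highest in replicate 3. In bulk tissue, fewer cells of a type and less RNA per cell cannot be told apart. CPM here are scaled by the TMM method, and a level per kilobase is CPM divided by the summed exon length of the gene.

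Among the members, a few neuronal transport genes held most of the summed level. The order and shares below leave out kinesins outside the symbol rule. Of those, Kifc2 was at 161 CPM per kilobase, below Klc1 and above Kif5c and Kif1a. On the per-kilobase scale, Kif5a, the neuron-specific kinesin-1 heavy chain, had the highest level at 397 CPM per kilobase. Klc1, the main neuronal light chain, followed at 248, Kif5c, another neuronal heavy chain, at 115, and Kif1a, the motor of synaptic vesicle precursors, at 109. These 4 genes held 75.5% to 77.5% of the summed level of all members in every library, and the 10 highest held 94.7% to 95.6%. The range of levels over the 8 libraries of Kif5a did not overlap that of Klc1, and that of Klc1 did not overlap that of Kif5c. Kif5c and Kif1a overlapped each other and stood apart from the next gene, Klc2, at 60.6. Kif1b (40.6), Kif21a (35.1), Kif1bp (34.7) and Kif5b (29.4) each overlapped the neighbour in that order. Then came a gap to Kif1c (14.5), Kif2a (13.4) and Klc4 (10.8), another to Kif17 (6.83) and Kif21b (6.45), and a last one to Kif13a (3.24) and all below it. Of the 36 neighbouring pairs in the order, 6 did not overlap. These ranges hold no uncertainty in gene length. The summed exon length of Klc1 was 4070 bases and its longest transcript has 2504. Another length would move the levels and could change which neighbours overlap, and no other length was tried.

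**Figure D1:**
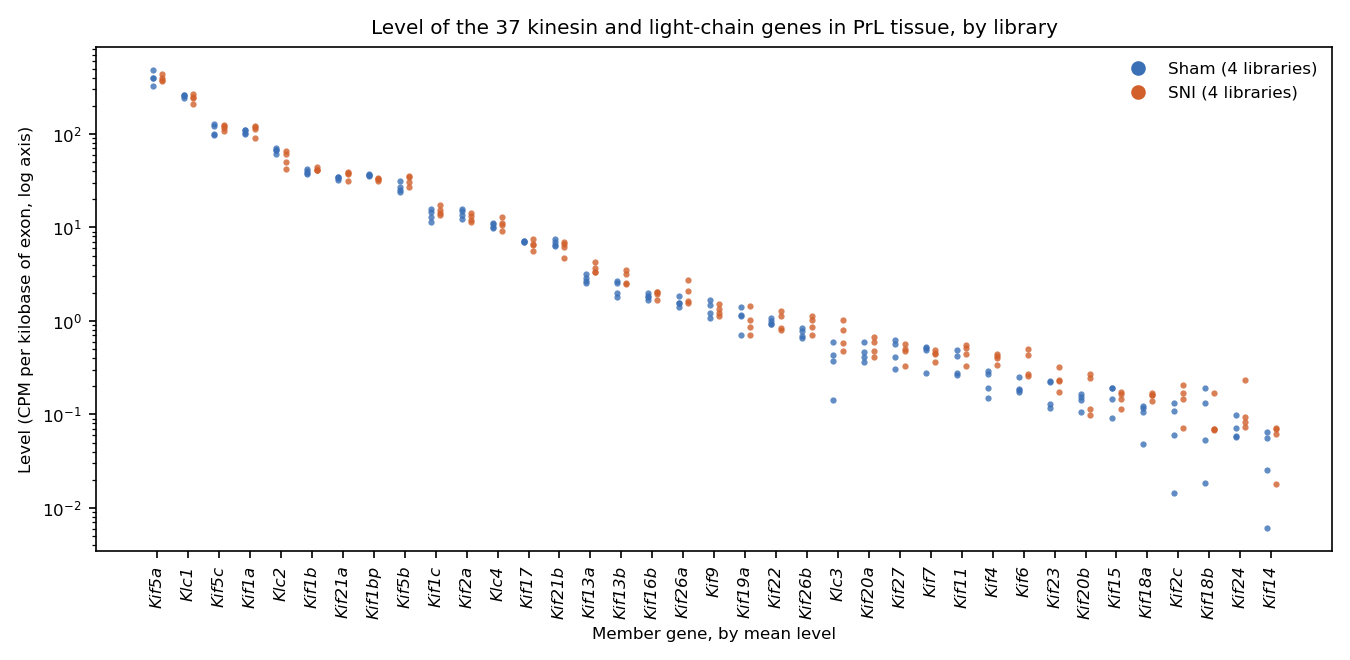
Level of each of the 37 genes in each library, in CPM per kilobase of exon on a log axis, ordered by mean level, with sham libraries in blue and SNI libraries in orange. Kif5a leads at a mean of 397 CPM per kilobase and Kif14 is last at 0.0467, and in most genes the points of both groups overlap.

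Between SNI and sham, no kinesin gene passed the test. By edgeR's quasi-likelihood test with Benjamini-Hochberg adjustment over all 13911 genes tested, 0 of 35 members were called at FDR 0.05, where 5.02% of all tested genes were called (2.15% higher and 2.87% lower in SNI). At an unadjusted p under 0.05 there were 10 members, 8 higher and 2 lower in SNI, which is 28.6% of the members against 21.1% of all genes. Split by direction, 22.9% of members were higher against 10.3% of all genes, and 5.71% lower against 10.7%. The 4 SNI values lay all above or all below the 4 sham values in 5 members, 14.3% against 12.7% of all genes. The 4 members above were Kif13a, Kif4, Kif6 and Kif18a, a pattern found in 5.64% of all genes, and the one below was Kif1bp. The median log2 fold change (SNI minus sham) was 0.09 over the members and 0.01 over all genes, and 23 of 35 were above 0 (65.7%) against 52.2% of all genes. DESeq2, run on all 37 members, called 1 of them, Kif13a, and so did limma voom on the 35, where these methods called 7.81% and 5.9% of all genes.

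Abundant and scarce members differed in how tightly they were measured. The 19 members at 10 CPM or more had log2 fold changes between -0.28 and 0.38, and their 95% confidence intervals all lay between -0.53 and 0.69. By edgeR, 0 of the 19 were called, against 5.56% of all genes at that level. Of the 19, 12 were above 0, against 47.9% of those genes, and the medians were 0.07 and -0.01. The 16 tested members under 10 CPM ranged from -0.13 to 0.90, with standard errors of 0.18 to 0.57, and 0 were called, against 3.65% of all genes under 10 CPM. Of the 16, 11 were above 0. Their median was 0.35, against 0.12 for all genes under 10 CPM, of which 63.1% were above 0. Kif2c, a microtubule-shortening motor of the spindle, and Kif18b, a spindle motor, stayed under the low-count filter, at 0.06 to 0.90 and 0.07 to 0.69 CPM, and the lowest-level member that passed it was Kif14.

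**Figure D2:**
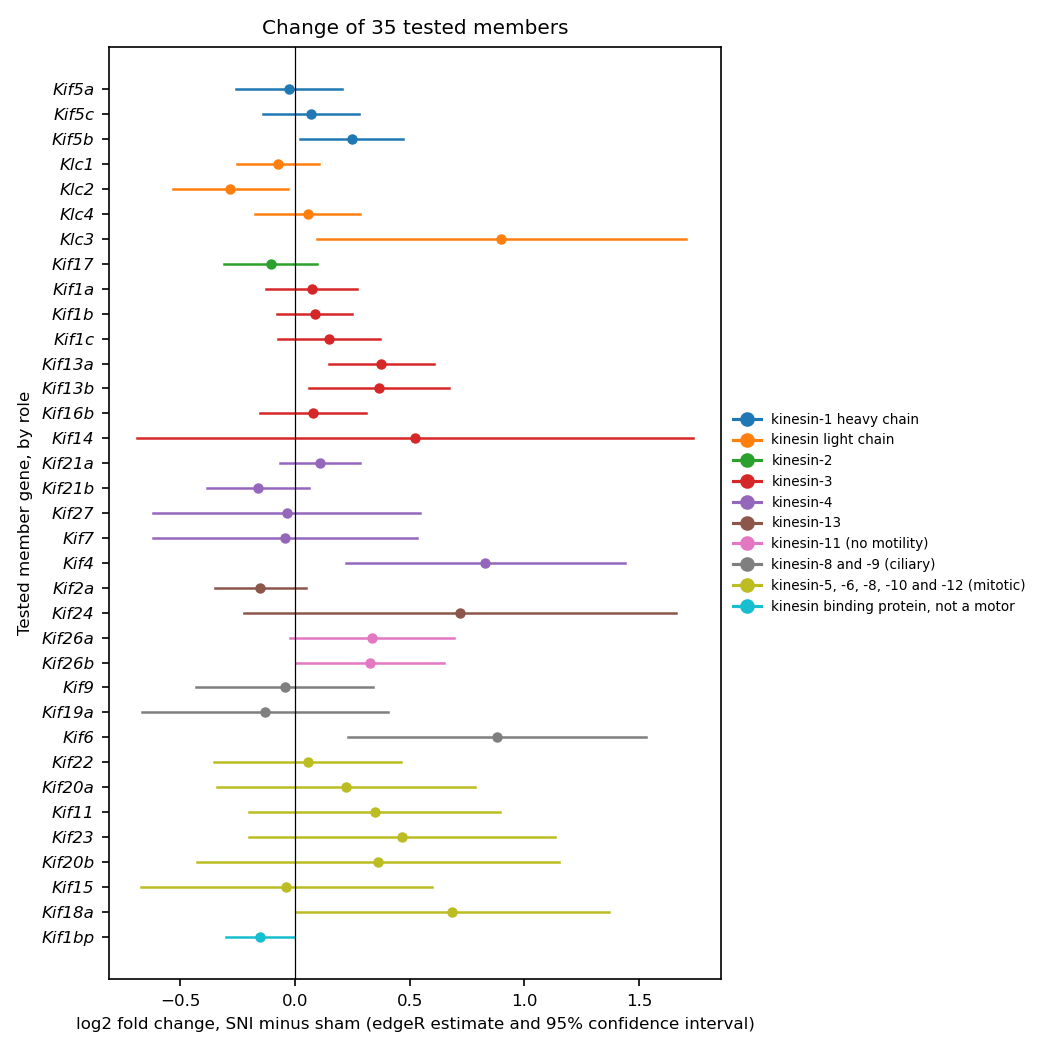
Log2 fold change of each of the 35 tested members, SNI minus sham, as a point with its 95% confidence interval from edgeR, grouped and coloured by role. Abundant transport genes have narrow intervals, which hold 0 for Kif5a and Kif1a but not for Klc2 at -0.28 and Kif5b at 0.25. Scarce genes such as Klc3 at 0.90 and Kif6 at 0.88 have wide ones.

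Among the kinesin-1 heavy chains, the most abundant gene had close means in both groups. Kif5a (chromosome 10, 127225696 to 127263348, GRCm38) measured 2758, 2286, 2782 and 3383 CPM in sham replicates 1 to 4 and 2565, 2614, 3066 and 2758 in SNI replicates 1 to 4. The SNI values lay inside the sham range. Its log2 fold change was -0.03 ± 0.11 (SE), with a 95% interval of -0.26 to 0.20 (edgeR adjusted p = 0.917). Kif5c measured 687 to 918 CPM in sham and 773 to 897 in SNI, with a log2 fold change of 0.07 (edgeR adjusted p = 0.717).

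Kif5b, the heavy chain made in most cell types, was at 200, 189, 215 and 253 CPM in sham and 214, 279, 281 and 245 in SNI. SNI replicates 2 and 3 were above every sham library and the other 2 overlapped the sham range. The log2 fold change was 0.25 ± 0.11 (SE), with an interval of 0.02 to 0.47 (unadjusted p = 0.0329, edgeR adjusted p = 0.191). Without SNI replicates 2 and 3 it was 0.10, but leaving out the highest values had to shrink it. Its share of the 3 Kif5 heavy chains per kilobase was 4.804% to 5.301% in sham and 5.337% to 6.534% in SNI. Kif5a held 72.74% to 75.81% and 69.97% to 73.67%, and Kif5c the remainder.

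Of the light chains, which link kinesin-1 to cargo, 0 of 4 passed edgeR's test, and 1 was lower and 1 higher at an unadjusted p under 0.05. Of all genes, 5.02% passed, and 10.7% were lower and 10.3% higher at that p. Klc1 (chromosome 12, 111758849 to 111807844) measured 1058, 1072, 1035 and 976 CPM in sham and 1078, 980, 857 and 1019 in SNI. Of the SNI libraries, replicate 3 lay lowest and replicate 1 highest, beyond the sham range on either side, and the log2 fold change was -0.07 ± 0.08 (SE; edgeR adjusted p = 0.656). Klc2, the second most abundant light chain, measured 294, 250, 279 and 277 CPM in sham and 268, 173, 209 and 254 in SNI. Replicates 2 and 3 of SNI were below every sham library. The log2 fold change of Klc2 was -0.28 ± 0.12 (SE), with an interval of -0.53 to -0.03 (unadjusted p = 0.0298, edgeR adjusted p = 0.182). Without those replicates it was -0.07, but leaving out the lowest values had to shrink it. Those 2 libraries also had the lowest sums of excitatory neuron markers, 4797 and 5807 CPM. SNI replicate 4 came close to replicate 3 with a sum of 5874 CPM, while its Klc2 value of 254 lay inside the sham range. The part of these markers in the Klc2 values was not tested.

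Klc3, a light chain best known from sperm cells, was scarce at 1.56, 0.996, 0.379 and 1.147 CPM in sham and 2.11, 1.54, 1.26 and 2.71 in SNI. The groups overlapped only through sham replicate 1. Its log2 fold change was 0.90 ± 0.38 (SE; edgeR adjusted p = 0.185). Klc3 overlaps Ercc2 on the opposite strand, which measured 13.3 CPM in sham and 10.5 in SNI. The sources used here do not say if strand was used in counting, so the level of Klc3 is uncertain. Klc4 measured 23.5 to 26.6 CPM in sham and 21.8 to 30.7 in SNI (log2 fold change 0.06, edgeR adjusted p = 0.813).

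Ratios of paralog counts within a library do not depend on how libraries are scaled. In each library, Kif5a counts were 13.8, 12.1, 12.9 and 13.4 times those of Kif5b in sham and 12, 9.38, 10.9 and 11.3 times in SNI. The groups did not overlap, though sham replicate 2 and SNI replicate 1 nearly met, and the mean log2 ratio was lower by 0.26 in SNI. Klc2 counts were 12.5, 10.3, 10.8 and 10.4 times those of Klc4 in sham and 8.75, 7.93, 7.88 and 10.03 times in SNI, again without overlap. Of the 9 pairs compared, 4 did not overlap, the other pairs being Klc1 to Klc3 and Klc2 to Klc3. Each had a two-sided exact permutation p of 0.0286, the smallest that 4 against 4 allows. The adjusted permutation p over the 9 pairs was 0.0643, so 0 pairs passed. With only 4 pairs at that smallest p, no pair could pass 0.05 after adjustment, however far apart the groups lay. The adjusted test therefore could not decide whether these ratios differ. As background, the ratio of a tested gene to Kif5b separated the groups for 9.12% of genes, to Klc2 for 15.5% and to Klc4 for 7.56%. No such background was made for Klc1 or Klc3, so the Klc1 to Klc3 pair has none. Apart from Kif5a to Kif5b, the separated pairs share Klc2 or Klc3 and are not separate observations. Kif5a to Kif5c and Klc1 to Klc4 overlapped between the groups.

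**Figure D3:**
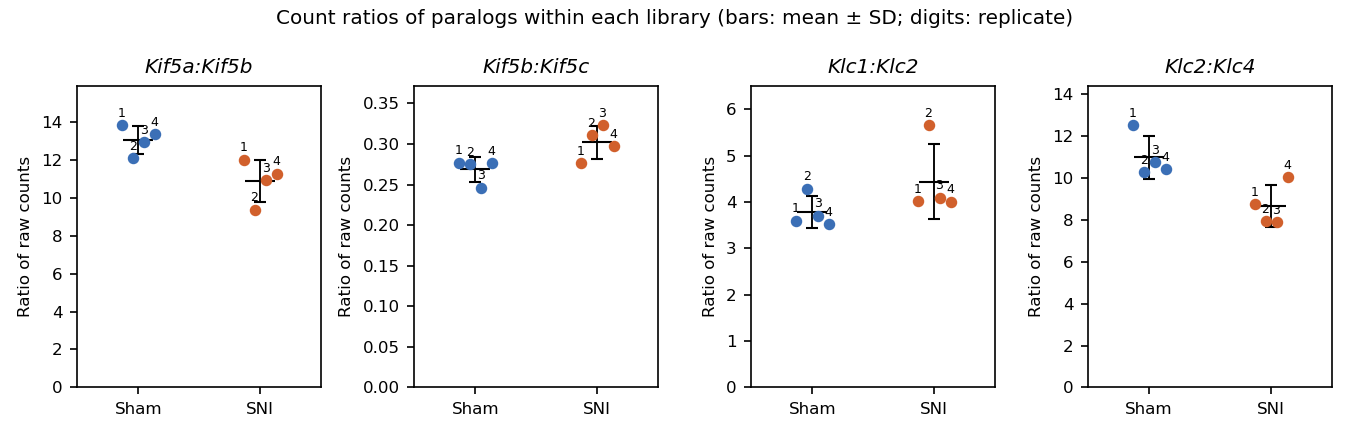
Ratio of raw counts of 4 paralog pairs in each library, with points numbered by replicate and bars giving mean ± SD of 4 libraries. The Kif5a to Kif5b ratio runs from 12.1 to 13.8 in sham and 9.38 to 12 in SNI, and the Klc2 to Klc4 ratio from 10.3 to 12.5 and 7.88 to 10.03.

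The kinesin-3 genes had log2 fold changes above 0 in 7 of 7 tested members, with a median of 0.15, where 52.2% of all genes were above 0. Kif14 of these was under 10 CPM, where 63.1% of genes were above 0. Its counts were 10, 4, 1 and 10 in sham and 3, 13, 11 and 12 in SNI, so it passed the low-count filter mostly through SNI. By edgeR 0 of 7 passed at FDR 0.05, and 2 had an unadjusted p under 0.05, where 21.1% of all genes did. The member of smallest p in the whole set was Kif13a (chromosome 13, 46749087 to 46929867), a motor of recycling endosomes. It measured 23.4, 21.6, 20.5 and 25.8 CPM in sham and 27.1, 27.0, 34.4 and 30.1 in SNI. Each SNI library was above each sham library, with means of 22.8 ± 2.29 and 29.7 ± 3.46 CPM (SD, n = 4 each). The log2 fold change was 0.38 ± 0.11 (SE), or 1.30-fold, with a 95% interval of 0.15 to 0.60, and edgeR's adjusted p was 0.0536, just above the threshold of 0.05. It passed in 9 of 20 alternative analyses, with an adjusted p from 0.0276 to 0.433 over all of them. Leaving out sham replicate 4, SNI replicate 1 or SNI replicate 2 gave adjusted p-values of 0.0406, 0.0445 and 0.0499, and leaving out SNI replicate 3 gave 0.166 with a log2 fold change of 0.30. That library had the highest Kif13a value. Its marker sums were also the highest of the 8 libraries for microglia (743 CPM), astrocytes (5074.5 CPM) and endothelial cells (449 CPM). At FDR 0.05 edgeR called 0 of 10 astrocyte and 0 of 8 endothelial markers, against 5.02% of all tested genes. The part of these 3 marker lists in the values of Kif13a, Kif13b and Kif26a, all highest there, was not tested.

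Kif13b, its close relative, which is known to be linked to myelination, measured 32.9, 23.6, 26.0 and 35.04 CPM in sham and 32.7, 32.1, 45.7 and 41.3 in SNI. The groups overlapped, with sham replicates 2 and 3 lowest and SNI replicates 3 and 4 highest. Its log2 fold change was 0.37 ± 0.14 (SE; edgeR adjusted p = 0.156). The oligodendrocyte markers summed to 7030, 3173, 3877 and 6641 CPM in sham and 4435, 5624, 6217 and 7858 in SNI. The sum was lowest in the same sham replicates 2 and 3 and highest among SNI libraries in replicates 3 and 4. Of these 10 genes, 0 passed edgeR's test at FDR 0.05 and 1 had an unadjusted p under 0.05, against 5.02% and 21.1% of all genes. Their part in the Kif13b values was not tested. Kif1a measured 939 to 1036 CPM in sham and 849 to 1131 in SNI (log2 fold change 0.07, edgeR adjusted p = 0.695). Kif1b, a motor of mitochondria and vesicle precursors, had a log2 fold change of 0.09, Kif1c, a vesicle motor, 0.15, Kif16b, an early endosome motor, 0.08, and the scarce cytokinesis motor Kif14 0.52, with edgeR adjusted p-values from 0.446 to 0.716.

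**Figure D4:**
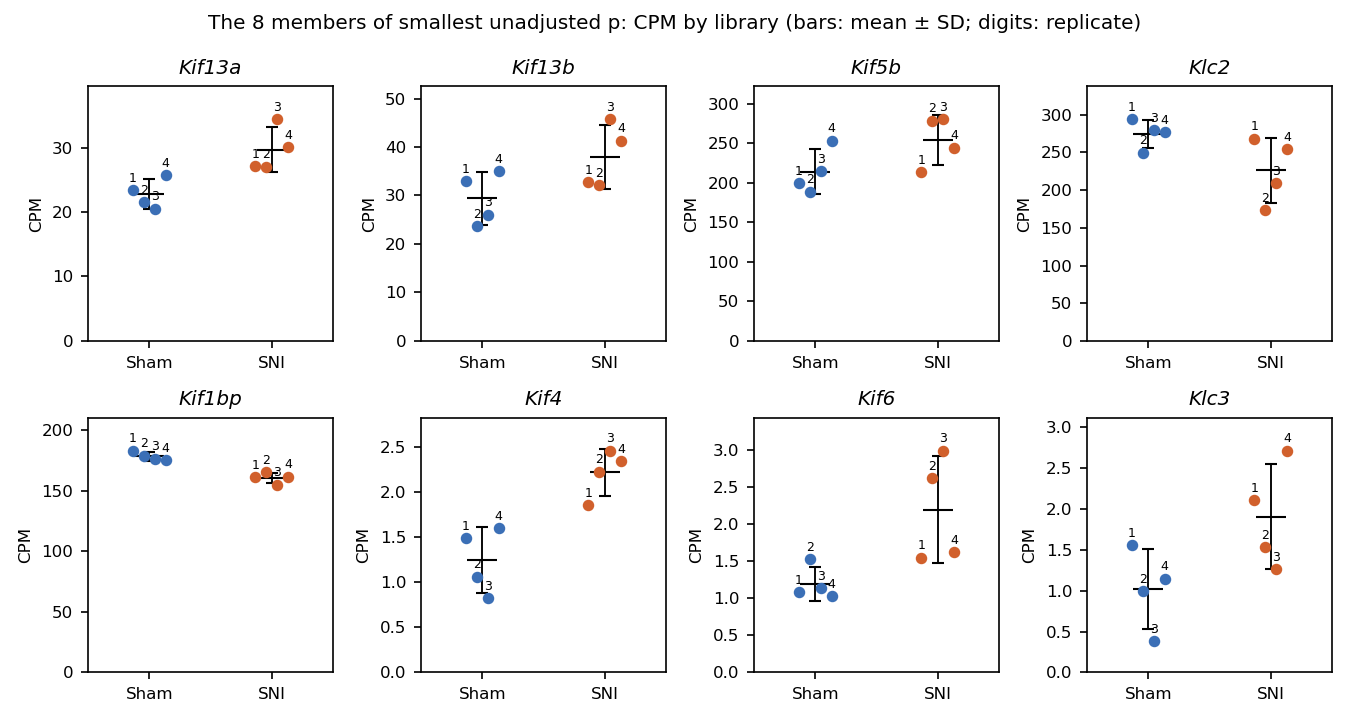
CPM by library of the 8 members of smallest unadjusted p, with points numbered by replicate, bars giving mean ± SD of 4 libraries and axes starting at 0. In Kif13a, Kif4, Kif6 and Kif1bp the groups do not overlap, while in Kif13b, Kif5b, Klc2 and Klc3 they do.

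Kif1bp, the kinesin binding protein that blocks several motors from microtubules, had the smallest standard error of the set. It measured 183, 179, 176 and 175 CPM in sham and 161, 165, 155 and 161 in SNI, without overlap. The log2 fold change was -0.15 ± 0.07 (SE), with an unadjusted p of 0.0458 and an edgeR adjusted p of 0.228. Of the 50-base stretches of its longest transcript, 16.6% also occur in transcripts of another gene, 4933428P19Rik, so reads could have been divided between them. All 4 SNI values below all 4 sham values were found in 7.02% of tested genes.

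Kif17, the homodimeric kinesin-2 that carries NMDA receptors in dendrites, measured 31.7 to 33.0 CPM in sham and 25.8 to 34.6 in SNI. The SNI libraries surrounded the narrow sham range, and the log2 fold change was -0.11 ± 0.10 (SE; edgeR adjusted p = 0.559). Among kinesin-4 genes, Kif21a, which dampens microtubule growth, had a log2 fold change of 0.11 (adjusted p = 0.476) and its relative Kif21b -0.16 (adjusted p = 0.408, both edgeR). The Hedgehog regulator Kif7 was at -0.04 and Kif27, related to it, at -0.04. Among kinesin-13 genes, the microtubule-shortening motor Kif2a measured 78.6 to 101 CPM in sham and 72.3 to 90.7 in SNI, a log2 fold change of -0.15 (edgeR adjusted p = 0.378). Kif2a overlaps Dimt1 on the opposite strand, which carries the same uncertainty as in Klc3. Kif24, which acts at the base of cilia, had a log2 fold change of 0.72 (edgeR adjusted p = 0.375), and 0.21 without SNI replicate 3, its highest library. Its counts were 7 to 12 in sham and 11 to 28 in SNI, near the low-count filter.

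The kinesin-11 genes Kif26a and Kif26b were both above 0. Kif26b measured 10.04, 12.3, 9.67 and 11.4 CPM in sham and 16.7, 10.4, 12.5 and 14.9 in SNI, a log2 fold change of 0.33 ± 0.15 (SE; unadjusted p = 0.0471, edgeR adjusted p = 0.231). SNI replicates 1, 3 and 4 were above all sham values. Kif26a measured 9.79 to 12.6 CPM in sham and 11.3, 10.8, 19.1 and 14.4 in SNI, so it was high mainly in replicate 3 (log2 fold change 0.34, edgeR adjusted p = 0.264, and 0.15 without that library).

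Kif4, a chromosome-binding motor of dividing cells, measured 1.49, 1.06, 0.821 and 1.61 CPM in sham and 1.86, 2.23, 2.46 and 2.35 in SNI. The groups did not overlap, and the log2 fold change was 0.83 ± 0.29 (SE; edgeR adjusted p = 0.108). Kif18a, which aligns chromosomes on the spindle, measured 0.475, 1.195, 1.137 and 1.03 CPM in sham and 1.36, 1.68, 1.60 and 1.57 in SNI, also without overlap (log2 fold change 0.69 ± 0.32, edgeR adjusted p = 0.235). Kif4 overlaps Pdzd11 and Kif18a overlaps Mettl15, each on the opposite strand, and those neighbours had log2 fold changes of -0.10 and 0.07. Pdzd11 was far more abundant than Kif4, at 31.1 CPM in sham and 29.1 in SNI. Of the 50-base stretches of the longest Kif4 transcript, 16.2% occur in transcripts of other genes, most of them in Pdzd11. The level of Kif4 carries the same uncertainty as that of Klc3.

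The other mitotic motors pointed mostly the same way without passing the test. Of the 7 tested in that group, Kif18a included, 6 had log2 fold changes above 0 and the median was 0.35, where 63.1% of all genes under 10 CPM were above 0 with a median of 0.12. By edgeR 1 had an unadjusted p under 0.05, where 21.1% of all genes did. The spindle motor Kif11 was at 0.35, the cytokinesis motor Kif23 at 0.47 and Kif20b at 0.36, while Kif22, a chromosome arm motor, was at 0.06 and Kif15 at -0.04. Kif20a, a cytokinesis motor, was at 0.22, and 31.2% of the 50-base stretches of its longest transcript occur in the overlapping gene Cdc23. Markers of dividing cells were mostly above 0 too. Of 11 such genes tested, 10 were above 0 with a median of 0.65, and 0 passed edgeR's test (2 at an unadjusted p under 0.05). The sum of the 12 listed was 63.7 to 87.6 CPM in sham and 83.2 to 106 in SNI. Most of it was Pcna, at 51.0 to 54.4 CPM in sham and 56.1 to 66.5 in SNI. Pcna was also the 1 tested marker whose groups did not overlap. The part of these markers in the values of Kif4 and Kif18a was not tested.

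Kif6, a motor of ependymal cilia, measured 1.09, 1.53, 1.14 and 1.03 CPM in sham and 1.55, 2.63, 3.00 and 1.63 in SNI. All SNI libraries were above all sham libraries, SNI replicate 1 only barely. The log2 fold change was 0.88 ± 0.31 (SE; edgeR adjusted p = 0.111), and 0.41 without SNI replicates 2 and 3. Those replicates held the highest Kif6 values, so leaving them out had to shrink it. The other ciliary motors, Kif9 at -0.04 and Kif19a at -0.13, did not share that direction. Ependymal markers summed to 21.9, 22.5, 23.9 and 23.5 CPM in sham and 25.0, 40.8, 36.2 and 33.8 in SNI, highest in the same replicates 2 and 3. Of 8 such genes tested, 7 were above 0 and 1, Cfap126, was higher at FDR 0.05. Of all genes under 10 CPM, 63.1% were above 0 and 3.65% were called. Cfap126 had counts of 8, 5, 5 and 12 in sham and 14, 44, 35 and 21 in SNI, so it passed the low-count filter mostly through SNI. The part of these markers in the Kif6 values was not tested.

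Most partners of the motors had values below 0 in SNI. In 4 lists of microtubule transport genes, 114 genes were tested, 0 were higher and 2 were lower in SNI at FDR 0.05 (1.75%, against 2.87% of all genes). At an unadjusted p under 0.05, 21 were lower by edgeR (18.4%, against 10.7% of all genes) and 4 higher (3.51%, against 10.3%). Of the 114, 82 had a log2 fold change below 0 (71.9%) and 32 above, where 52.2% of all genes were above 0, and the medians were -0.09 and 0.01. The excitatory neuron markers were also mostly below 0, 9 of 10 with a median of -0.28 and 3 lower at FDR 0.05 by edgeR, and their part in the partners' values was not tested. Dclk1, a doublecortin-like kinase that binds microtubules, fell. It measured 932, 978, 1020 and 971 CPM in sham and 727, 753, 630 and 767 in SNI, a log2 fold change of -0.44 ± 0.08 (SE; edgeR adjusted p = 0.00788). Ttl, the ligase that puts tyrosine back on tubulin, fell from 97.7 ± 11.97 to 77.0 ± 1.64 CPM (SD, n = 4 each), a log2 fold change of -0.34 ± 0.09 (SE; edgeR adjusted p = 0.0335). The Ttl call was lost without sham replicate 3 or 4 or without SNI replicate 1, 3 or 4, and both calls were lost with a striatal marker value per library in the fit (adjusted p = 0.116 for Dclk1 and 0.250 for Ttl), with log2 fold changes of -0.47 and -0.36 in that fit. Over all 20 alternatives Dclk1 lay between -0.52 and -0.38 and Ttl between -0.40 and -0.28.

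List by list, counts can be read against all genes, of which 52.2% were above 0 and 10.7% were lower and 10.3% higher at an unadjusted p under 0.05. The tubulins had 13 of 14 genes below 0, with a median of -0.18, 0 passing edgeR's test and 5 lower at an unadjusted p under 0.05. Tubb4a was at -0.27, Tubg1 at -0.26 and Tubb6 at -0.51. The adaptors and cargo linkers had 27 of 36 below 0 with a median of -0.09, 0 passing and 8 lower at an unadjusted p under 0.05, led by Cask (-0.25, edgeR adjusted p = 0.0646), Lin7a (-0.40, 0.0778) and Clstn1 (-0.32, 0.0888), the last a cargo receptor for kinesin-1 light chains. Dynein and dynactin, which carry cargo the opposite way, had 17 of 33 below 0 and a median of 0.00, with Spdl1 at 0.99, Dync1li1 at -0.23 and Capzb at -0.21. By edgeR 0 passed, and 4 were lower and 1 higher at an unadjusted p under 0.05. The list of microtubule-associated proteins and modifiers, which holds Dclk1 and Ttl, had 25 of 31 below 0 and a median of -0.10, with Map9 at -0.29. No test was made of the difference between these lists and the kinesins.

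**Figure D5:**
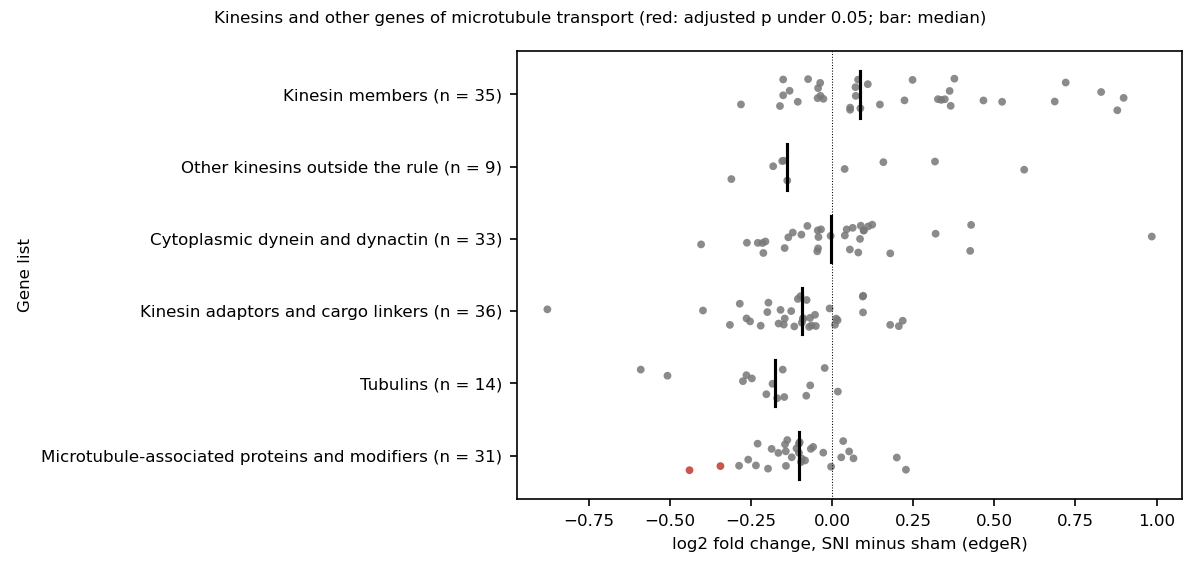
Log2 fold change (SNI minus sham, edgeR) of every tested gene in the kinesin set and in 5 lists of related genes, with a black bar at each median and red for genes at an adjusted p under 0.05. The kinesin median is 0.09 and the tubulin median -0.18, and the 2 red points are Dclk1 and Ttl.

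Among 9 kinesins outside the symbol rule, 0 passed edgeR's test, 1 was lower and 1 higher at an unadjusted p under 0.05, and the median was -0.14. Of all genes, 5.02% passed, 10.7% were lower and 10.3% higher at that p, and the median was 0.01. Kif3c, a heterotrimeric kinesin-2 subunit, had a log2 fold change of -0.31 (edgeR adjusted p = 0.0989), and Kif3a and Kif3b, the other motor subunits, were at -0.15 and -0.18. Stard9 was at 0.32 and the kinetochore motor Cenpe at 0.59.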

How the data were processed

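Raw read counts per gene symbol were deposited by the authors for all 8 libraries in one table. Reads were processed with fastp, HISAT2 and StringTie on GRCm38, per the submitters' processing notes, and the sources used here do not say if counting used strand. No count in the table is below 1. Counts were scaled with TMM and tested with edgeR 4.0.16 (filterByExpr, robust quasi-likelihood F-test, R 4.3.3) on 4 SNI against 4 Sham libraries, with no covariate and Benjamini-Hochberg adjustment over the 13911 genes kept. The biological coefficient of variation was 12.1%. Exon lengths and positions came from GENCODE M21 (14661 symbols matched). Paralog ratios were tested by exact permutation over 70 assignments. DESeq2 1.42.0 and limma 3.58.1 (voom) were alternatives, with other scalings, filters, GC offsets, a replicate block, a striatal marker covariate and left-out libraries. The fitting code was tested on simulated data. Named were any members at FDR 0.05, the 12 of smallest p, the member of smallest p and of highest level in each role, members outside the filter, and in each related list the genes at FDR 0.05 and the 3 of smallest p. Other members are named to account for all. The members and lists were chosen with earlier results of these data known.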

Additional observations from a re-analysis of the deposited data

Results flagged for a closer look

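In groups of 4 libraries, 8 of 92 groups of values held a library far from the other 3 by Dixon's test of the gap over the range at the 95% level, where chance gives about 1 in 20. Kif1b was at 778.6 CPM in SNI replicate 1 and 720.1 to 722.4 in the others. Kif7 was at 1.264 CPM in sham replicate 3 and 2.239 to 2.39 in the others. SNI replicate 3 was high for Kif18b (0.599 CPM, others 0.241 to 0.2478) and for Kif24 (1.864 CPM, others 0.5944 to 0.7435). Kif14 was low in SNI replicate 1 at 0.1859 CPM, with 0.6439 to 0.7321 in the others. The Kif5b to Kif5c count ratio was 0.2463 in sham replicate 3 and 0.2752 to 0.277 in the others. The Klc1 to Klc2 ratio was 5.657 in SNI replicate 2 and 4.006 to 4.096 in the others. The Klc2 to Klc3 ratio was 736.5 in sham replicate 3 and 188.4 to 250.7 in the others, from few Klc3 counts.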

How the results depend on the processing

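Members lower in SNI stayed at 0 in all 20 alternatives. Members higher in SNI became 1, Kif13a, under upper-quartile scaling, library totals only, a filter of 1 CPM in 4 libraries, DESeq2, limma voom and GC-content offsets, and ranged from 0 to 1 when each library was left out. Transport partner genes lower in SNI, 2 in the main analysis, numbered 1 with library totals only, 6 with DESeq2, 4 with voom, 6 with GC-content offsets and 0 with the striatal covariate, 4 without SNI replicates 2 and 4 and 1 without SNI replicates 2 and 3, and ranged from 1 to 4 when each library was left out. Partners higher numbered 1 with GC-content offsets. Replicate numbers did not pair the libraries: the deviations of same-numbered libraries correlated at -0.165 to 0.0129, and 0 of 4 sham libraries correlated best with their own number. With the replicate number as a block, 518 genes were called in place of 698, 0 members in either direction, and 1 partner lower. Of 399 values for 20 named members, 375 kept direction and side of the threshold, 9 (all Kif13a) passed it, and 15 in 5 genes reversed. Kif5a was 0.0209 with library totals, 0.00368 with voom and 0.00631 without SNI replicates 2 and 4, and -0.117 to 0.0752 when each library was left out. Without SNI replicates 2 and 3, Klc1 was 0.0187, Kif17 0.00131 and Kif22 -0.25, and Kif22 was -0.10 with voom. Kif9 was 0.00398 with library totals. With each library left out, Kif9 ran from -0.144 to 0.0627 and Kif22 from -0.0703 to 0.151. Library totals moved the median of all genes to 0.06 and the calls from 299 higher and 399 lower to 446 and 276. The striatal covariate left 28 genes called in all, and DESeq2 called 1153. Fold changes of members under 10 CPM rest on few reads. The cause of each change was not tested.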
